A study of Rattus norvegicus with 44 samples.

Results

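The change described here is that of the kidney cortex of male rats heterozygous at Xdh between postnatal days (PND) 5 and 15. It rests on 4 PND15_Het and 4 PND5_Het libraries, 8 of the 44 libraries of the study, each from the cortex of 1 animal. A gene was tested if it reached 1 FPKM (fragments scaled by gene length and library size) in at least 3 of the 8 libraries, which kept 14392 of 32545 genes. The study sequenced poly-A RNA of snap-frozen cortex at 4 ages from animals labelled WT, Het or Homo at Xdh, whose gene product, xanthine dehydrogenase, makes urate in the last steps of purine breakdown. WT (3 libraries at PND5 and 4 at PND15) and Homo (4 at each age) enter below only where their change was set against that of Het. The kind of Xdh allele, the strain, the litter of each animal and the genome build are not stated in the labels. The p-values therefore measure the spread between these libraries, some of which may come from littermates.

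In the rat the nephrons go on forming for about the first week after birth, and the tubules mature through weaning. The proximal tubule then gains the carriers and brush border enzymes that reclaim the filtrate, and it draws its energy mostly from fatty acid oxidation. The thick ascending limb gains salt transport and uromodulin, and the collecting duct gains acid-secreting and water-reabsorbing cells, while cell division and fetal growth genes decline. In bulk tissue, fewer cells of a type and less RNA per cell cannot be told apart.

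The 8 libraries held 13267272 to 23329418 reads on genes. Mitochondrial genes took 6.63 to 7.23% of reads at PND5 and 8.15 to 10.1% at PND15. PND15_Het replicate 2 stood apart. Its mean Pearson r to its group, across genes, was 0.960, against 0.971 to 0.972 for the other 3, and 748 genes (5.20% of those tested) set it apart from the rest of its group by Dixon's criterion, against 0.813 to 1.79% in the other 7 libraries. Aqp2, the water channel of collecting duct principal cells, was 408 FPKM in it and 93.2 to 122.1 in the other 3 PND15 libraries. Nupr1, a stress response gene, was 94.98 against 0.345 to 0.470, Fkbp5, a glucocorticoid target, 33.4 against 7.17 to 8.57, and Mki67, a proliferation marker, 2.47 against 11.5 to 14.6. Of the 39 cell cycle genes tested, 38 were lowest in it, and of 27 nuclear genes of oxidative phosphorylation 26 were highest. The inner medulla list summed to 647 FPKM in it and to 136 to 182 in the other 3 PND15 libraries. The urothelium list summed to 45.3 against 2.73 to 9.22, and the liver list to 95.4 against 46.6 to 52.8. These genes and lists were picked after their values were seen. The list counts that moved most when it was left out are given both ways, and what sets it apart was not tested. The adrenal list summed to 305 FPKM in PND5_Het replicate 2 and to 2.61 to 7.43 in the other 7, with Cyp21a1, an adrenal steroid hydroxylase, at 81.8 against 0 to 0.205. The fat list summed to 29.8 to 697 at PND5 and 27.7 to 469 at PND15, with no member called, and the part of either tissue in the results was not tested.

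Xdh itself (ENSRNOG00000007081, chromosome 6, 25149235 to 25211494, minus strand, protein coding, in the coordinates of the deposited table) was read first. The PND5_Het libraries held 3.59, 2.99, 3.30 and 1.84 FPKM and the PND15_Het libraries 8.95, 13.2, 11.2 and 10.4. All PND15 values lay above all PND5 values. The mean went from 2.93 ± 0.765 (SD, n = 4) to 10.9 ± 1.78 (n = 4), 3.73-fold, a difference of 1.61 ± 0.17 on the log2(FPKM + 1) scale (SE, limma adjusted p = 0.000321). The two-sided exact permutation p was 0.0286, the smallest that 4 against 4 libraries can give, and 0.0286 after adjustment over the 3 genes so tested. Het held 70.1% of the WT mean at PND5 and 69.4% at PND15, without overlap at PND15 but with overlap at PND5. Homo held 22.8% and 51.0% of the Het mean, and every Homo library lay below every Het library at both ages.

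The other 2 genes given as markers of this interval moved further. Hnmt (ENSRNOG00000005223, chromosome 3, 904765 to 937102), which inactivates histamine by methylation, was 0.380, 0.813, 0.755 and 0.231 FPKM at PND5 and 58.5, 28.9, 28.003 and 22.3 at PND15. The groups did not overlap, the means differed 63.2-fold, and the difference was 4.44 ± 0.28 log2 (SE). Hnmt lay under 1 FPKM in every PND5 library and passed the filter only through PND15. Its values are therefore given as a description and no p is read from them. It still counts among the called genes below, in the largest rises and in the amino acid list. Egf (ENSRNOG00000053979, chromosome 2, 68820615 to 68895920), a growth factor made by the thick ascending limb and distal tubule, was 3.99, 6.49, 3.73 and 6.20 at PND5 and 45.3, 22.3, 32.5 and 32.3 at PND15. It rose 6.48-fold (2.47 ± 0.23 log2, limma adjusted p = 0.000252; exact permutation p = 0.0286), with its lowest PND15 value in replicate 2. Because 1 FPKM is added before the logarithm, log2 differences understate the fold of low genes such as Hnmt.

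**Figure D1:**
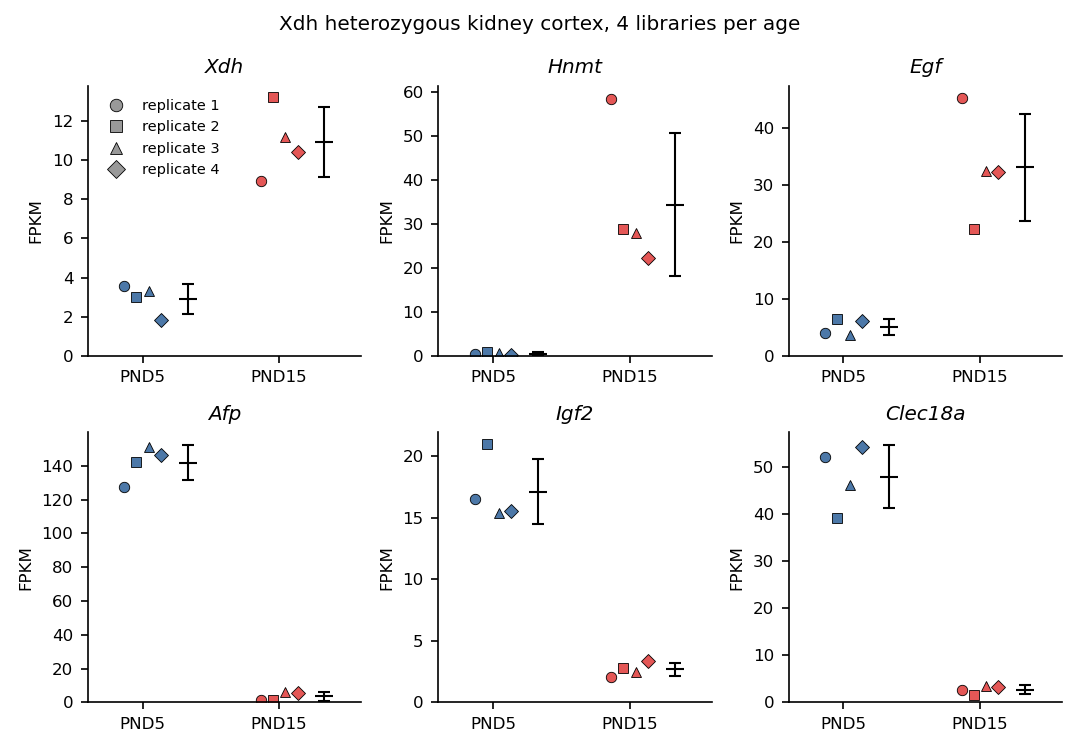
FPKM of the 3 markers and of 3 of the genes with the largest falls in each heterozygous library at PND5 (blue) and PND15 (red); the symbols mark replicates 1 to 4, which are not paired between ages, and the bar gives the mean and SD of 4 libraries. In each panel the groups do not overlap: Xdh goes from 1.84 to 3.59 FPKM at PND5 to 8.95 to 13.2 at PND15, and Afp from 127 to 151 down to 1.15 to 6.16.

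Over all genes 4555 were called at a limma adjusted p under 0.05 (31.6% of those tested), 2443 higher at PND15 (17%) and 2112 lower (14.7%). The words rose, fell and changed stand for called genes only. The groups did not overlap in 35.5% of all genes tested and in 4244 of those called. Of the genes tested, 0.827% lay under 1 FPKM in every PND5 library and 1.09% in every PND15 library. These passed the filter only through the other age, which favours a difference. Those called still count in the totals and in the list counts below. Of the called genes 346 rose and 246 fell by at least 1 log2 unit. Without PND15_Het replicate 2, 4659 genes were called (32.4%), of which 4064 were shared. The split by direction depends on the scaling: with every library brought to the same summed FPKM (TPM) the median of all genes moved by -0.14 log2, and 1532 genes rose and 3677 fell. The lists below are read against the 17% that rose, the 14.7% that fell and the median over all genes tested, which was -0.00069 log2. Their counts with TPM are read instead against the 1532 that rose and 3677 that fell with TPM, of 14392 genes tested.

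Besides Hnmt and Egf, the 10 largest rises held Sult1c2a, a sulfotransferase, which went from 34.5 ± 4.46 to 238 ± 21.8 (n = 4 and 4). Slco1a6, a carrier of organic anions whose reads can be shared with close copies in its family, rose 6.85-fold. Osgin1, a target of the antioxidant regulator NRF2, rose 6.29-fold. Apoe, the lipid carrier apolipoprotein E, rose 6.43-fold, from 72.0 to 169 FPKM up to 451 to 1112. Cnpy1, Csf2rb, a receptor chain for cytokines, and Aspg, an asparaginase, were also among the 10, at 10.3-fold, 6.42-fold and 9.57-fold.

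The largest fall was that of Afp, alpha-fetoprotein, which stood at 127, 142, 151 and 146 FPKM at PND5 and 1.15, 1.25, 6.16 and 5.55 at PND15, 40.2-fold lower (-5.20 ± 0.41 log2, SE, limma adjusted p = 0.000119). Alb, the albumin of adult liver, was 0.183 to 20.6 FPKM at PND5 and 0.0651 to 13.1 at PND15, without a call. Clec18a, a lectin, fell 17.8-fold and Tnnt2, a troponin of heart and developing muscle, 14.4-fold. Fbn2, the fibrillin of fetal elastic fibres, fell 8.17-fold, and Il13ra2, a decoy receptor of interleukin 13, 10.3-fold. Agtr2, the angiotensin receptor of fetal tissue, was 3.85, 9.48, 4.42 and 5.19 at PND5 and 0.480, 0.433, 0.153 and 0.751 at PND15. It passed the filter only through PND5, so its values are given as a description. Igf2, the fetal growth factor, fell 6.39-fold, and Tcp11, Shisa3 and Timm8a2 fell 6.56-fold, 4.74-fold and 7.66-fold.

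Most solute carriers of the proximal tubule rose. Of 29 solute carriers tested 25 rose and 0 fell, with a median of 1.05 log2, and the 4 without a call were Slc5a1, Slc2a2, Slc7a8 and Slc16a9. Slc34a1, the main phosphate carrier of the brush border, was 674, 568, 717 and 627 FPKM at PND5 and 1681, 1451, 1585 and 1637 at PND15. The gap between its groups was wider than either group, and it rose 2.46-fold (1.299 ± 0.09 log2, SE, limma adjusted p = 6.29e-05). Both chains of the cystine carrier rose together, Slc3a1 2.42-fold and Slc7a9 2.24-fold. Slc5a12, a lactate carrier, had the largest rise of the list, from 34.2 ± 7.64 to 134 ± 17.5 FPKM, and Slc23a1, which takes up vitamin C, rose 2.49-fold.

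The promoters of Slc34a1 and Slc3a1 are printed because their genes rose with the list and hold letters linked in general to HNF1 and HNF4, factors known from proximal tubule genes. They run from 250 bases before to 50 after the start in RefSeq's GRCr8, a build that need not be that of the deposited coordinates. Capitals mark every motif letter found on either strand among these motifs: the HNF1 core GTTAAT, the HNF4 motif CAAAGTCCA, the cell cycle homology region TTTGAA, the E2F motifs TTTCCCGC and TTTGGCGC and the NF-Y motif CCAAT.
Slc34a1, chr17:9238934-9239233, minus strand: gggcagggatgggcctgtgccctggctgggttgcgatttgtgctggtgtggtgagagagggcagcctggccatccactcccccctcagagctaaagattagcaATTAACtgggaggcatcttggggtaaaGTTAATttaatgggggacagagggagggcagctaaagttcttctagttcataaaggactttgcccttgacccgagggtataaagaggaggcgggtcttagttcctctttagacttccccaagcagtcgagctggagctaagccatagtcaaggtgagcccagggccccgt
Slc3a1, chr6:15394700-15394999, minus strand: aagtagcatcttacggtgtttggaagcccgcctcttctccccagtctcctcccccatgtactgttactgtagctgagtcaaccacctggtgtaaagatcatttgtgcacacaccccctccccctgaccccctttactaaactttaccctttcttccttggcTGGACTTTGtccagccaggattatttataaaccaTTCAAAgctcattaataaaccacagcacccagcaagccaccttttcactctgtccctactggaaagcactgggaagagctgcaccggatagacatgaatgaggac
Slc34a1 holds the HNF1 core on both strands, and Slc3a1 holds the HNF4 motif and the letters TTTGAA, both in reverse, with no overlap between motifs. Of the risen proximal tubule carriers with a promoter in the table, 4 of 21 (19%) held the HNF1 core, as did 3 of 17 (17.6%) of the risen organic ion carriers and 7.37% of all 27457 promoters. The HNF4 motif stood in 1 of the 21 and in 0.375% of all promoters. The ERR motif TCAAGGTCA, searched in the same way, stood in 0 of the 21 and 0.412% of all promoters. A match describes letters and is no evidence of binding.

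All 20 organic ion and urate carriers tested rose, with a median of 1.04 log2. Slc22a7, an organic anion carrier, was 0.918, 0.499, 0.907 and 0.718 FPKM at PND5 and 9.89, 5.31, 7.85 and 7.05 at PND15, 9.89-fold higher. It passed the filter only through PND15, so its values are given as a description. Slc22a7 still counts among the 20 that rose. Slc22a12, the urate carrier URAT1, rose from 47.4 ± 2.49 to 155 ± 34.4 (n = 4 and 4), and Slc22a13, a carrier of nicotinate and urate, 4.09-fold. Of 19 brush border enzymes and scaffold genes 15 rose, with a median of 0.62 log2, and 1 fell. Mep1b, a meprin subunit, rose 2.68-fold and Xpnpep2, an aminopeptidase, 2.54-fold. Endocytosis genes rose in 8 of 11, with Cubn, the cubilin receptor, 2.17-fold and Lrp2, megalin, 1.67-fold higher. With TPM 5 of them rose.

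Metabolic genes mostly rose too. Bulk cortex does not show in which segment they did so, and this was not tested. Of 25 genes of amino acid and amine metabolism 22 rose and 0 fell (median 0.98 log2), Aadat, an aminotransferase of the kynurenine and lysine pathways, from 157 ± 21.1 to 493 ± 46.1 FPKM and Dao, which oxidises D-amino acids, 2.56-fold. Gluconeogenesis and fructose genes rose in 11 of 14 (median 0.83 log2), with Khk, ketohexokinase, at 81.9, 86.6, 102 and 107.6 FPKM before and 228, 215, 221 and 219 after. Its groups did not overlap. Fatty acid oxidation rose in 23 of 25 genes at a smaller size (median 0.52 log2): Acaa2, a mitochondrial thiolase, rose 1.77-fold and Acadm, the medium-chain dehydrogenase, 1.76-fold. Nuclear genes of oxidative phosphorylation rose in 16 of 27 (median 0.32 log2), with Cycs, cytochrome c, 1.71-fold higher, and in 15 without replicate 2. With TPM these 2 counts were 17 and 10, and 0 fell in each.

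**Figure D2:**
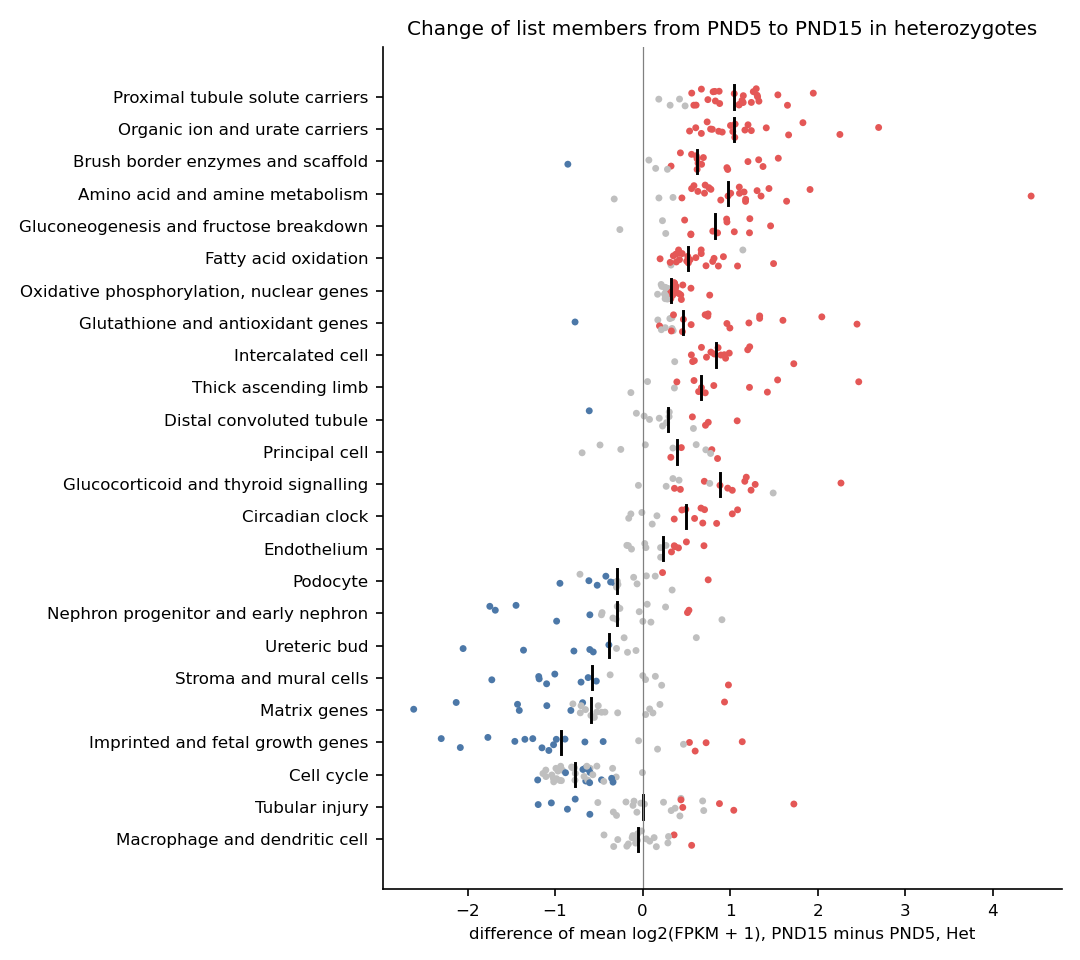
Difference of mean log2(FPKM + 1) between PND15 and PND5 for the tested members of 24 lists in heterozygotes; each point is a gene, red if it rose, blue if it fell and grey if not called, and the black bar is the list's median. Carrier and metabolic lists lie to the right (proximal tubule solute carriers, median 1.05), and growth and cell cycle lists to the left (medians -0.94 and -0.77).

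Most genes of the antioxidant and foreign compound lists rose. Of 26 glutathione and antioxidant genes 17 rose and 1, Hmox1, fell (median 0.46 log2), and the call of Hmox1 was lost without PND15_Het replicate 2 (adjusted p = 0.0618). Gclc, the catalytic chain of the enzyme that limits glutathione synthesis, was 103, 114, 112 and 107 FPKM at PND5 and 553, 572, 377 and 355 at PND15, 4.26-fold higher (2.05 ± 0.16 log2, SE, limma adjusted p = 8.23e-05). Its partner Gclm rose 2.55-fold and the next enzyme, Gss, 2.01-fold. Of 16 foreign compound genes 12 rose and 0 fell (median 0.95 log2; 12 and 1 without replicate 2). Cyp4a2, which hydroxylates fatty acids and has close copies, rose 3.23-fold and Fmo1 3.16-fold.

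In the thick ascending limb 10 of 13 genes rose and 0 fell (median 0.67 log2; 10 and 1 without PND15_Het replicate 2). Umod, uromodulin, the most abundant protein of normal urine, was 291, 437, 378 and 382 FPKM at PND5 and 1229, 708, 1085 and 1024 at PND15, with the lowest PND15 value in replicate 2. It rose 2.72-fold, and Slc12a1, the sodium, potassium and chloride carrier, stood at 239 to 276 before and 351 to 468 after. Intercalated cells, which secrete acid or base, rose in 15 of 16 genes (median 0.84 log2). Slc26a4, pendrin, an exchanger of chloride and bicarbonate, was 8.12, 8.23, 7.42 and 7.96 at PND5 and 27.6, 43.0, 24.2 and 23.1 at PND15, without overlap. Atp6v0a4, a proton pump subunit, rose 1.86-fold and Foxi1, the factor that specifies these cells, 1.77-fold.

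Most genes of the distal convoluted tubule and of principal cells carried no call. Of 14 distal convoluted tubule genes 4 rose (median 0.29 log2), among them Kcnj16, a potassium channel, at 2.14-fold and Trpm6, a magnesium channel, at 1.95-fold. Slc41a3 fell, and Slc12a3, the thiazide-sensitive carrier that defines the segment, was 55.7 to 71.8 FPKM at PND5 and 71.9 to 103.7 at PND15, without a call. Of 12 principal cell genes 4 rose and 0 fell. They were Avpr2, the vasopressin receptor, at 1.90-fold, Nr3c2, the mineralocorticoid receptor, at 1.42-fold, and the sodium channel subunits Scnn1a and Scnn1g at 1.91-fold and 1.27-fold. Without PND15_Het replicate 2, 5 rose and 3 fell, and with TPM 1 rose and 1 fell. Aqp4, a basolateral water channel, stood apart in that library: it was 9.07, 12.9, 12.8 and 14.4 at PND5 and 6.46, 28.9, 5.08 and 4.69 at PND15. The call was absent with it and present without it (-1.04 log2, adjusted p = 0.00108).

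Regulators and hormone genes rose in number. Of 27 transcription factors of the tubule 17 rose and 1 fell (median 0.43 log2). Hnf4a was 60.2, 48.1, 63.7 and 56.8 FPKM at PND5 and 112, 163, 110 and 112 at PND15, 2.17-fold higher. Of 17 genes of glucocorticoid and thyroid signalling 11 rose and 0 fell (median 0.88 log2), 7 with TPM. Dio1, the deiodinase that makes active thyroid hormone, was 26.3, 26.4, 27.0 and 27.6 at PND5 and 175, 93.3, 128 and 148.7 at PND15. Its PND5 libraries lay close together, far below those of PND15, and it rose 5.09-fold (2.27 ± 0.17 log2, SE, limma adjusted p = 7.6e-05). Thrb, a thyroid hormone receptor, rose from 8.57 ± 0.301 to 16.8 ± 2.29 FPKM, and Hr, a thyroid hormone target, 5.65-fold from 0.274 ± 0.0251 to 1.55 ± 0.565 FPKM. Hr passed the filter only through PND15, so its values are given as a description. Circadian clock genes rose in 10 of 15 (median 0.49 log2), 7 with TPM, Nr1d1 2.38-fold and Dbp 1.61-fold. The hour of collection is not stated in the labels.

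Fetal growth, stromal and matrix genes fell more often than they rose. Of 20 imprinted and fetal growth genes 13 fell and 4 rose (median -0.94 log2). Without PND15_Het replicate 2, 11 fell and 4 rose. Hmga2, a chromatin protein of fetal tissue, was 7.72, 8.52, 7.56 and 6.78 FPKM at PND5 and 1.84, 2.02, 2.24 and 2.47 at PND15, without overlap. Igfbp2, a binding protein of insulin-like growth factors, fell 3.52-fold and Plagl1, an imprinted regulator, 2.17-fold, whereas Igf1, Igfbp1, Igfbp5 and Ghr, the growth hormone receptor, rose. Of 14 stromal and mural genes 8 fell and 1 rose (8 and 2 without PND15_Het replicate 2). Acta2, smooth muscle actin, went from 245 ± 29.2 to 76.5 ± 27.0 FPKM and Aldh1a2, a retinoic acid enzyme, fell 2.27-fold, while Ntn1, a guidance cue, rose 2.02-fold. Of 23 matrix genes 7 fell and 1 rose (median -0.59 log2), and 8 fell and 3 rose without that library (median -0.30), which was the lowest of the 4 PND15 libraries in 21 of them. Vcan, versican, fell 2.30-fold and Thbs2, a thrombospondin, 2.74-fold, and Dcn, decorin, rose 1.92-fold. Fibrillar collagens carried no call: Col1a1 was 305 to 367 FPKM at PND5 and 193, 128, 284 and 307 at PND15, lowest in replicate 2.

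Six2, the factor that keeps nephron progenitors, was 0.422 to 1.06 FPKM at PND5 and 0 to 0.278 at PND15 and was not tested. In the list of progenitors and early nephrons 5 of 19 fell and 2 rose (median -0.29 log2), over sums of 354 to 446 FPKM at PND5 and 361 to 451 at PND15. With TPM 8 of this list fell and 2 rose. Gdnf, the signal from the mesenchyme to the ureteric bud, was 4.14, 2.60, 2.29 and 2.62 at PND5 and 0, 0.304, 0.107 and 0.211 at PND15. Fgf8, a signal of forming nephrons, was 0.674, 1.48, 2.74 and 2.55 at PND5 and had 0 reads in every PND15 library, which puts it at least 21.3-fold lower, taking 3 reads in the whole group as the limit of detection. Gdnf and Fgf8 passed the filter only through PND5, so their values are given as a description. Both still count among the 5 genes of the progenitor list that fell, beside 14.7% of all genes tested. That count therefore says little about the list as a whole. Lef1, a mediator of Wnt signals, fell 4.33-fold. Of 11 ureteric bud genes 6 fell and 0 rose, with Wnt11, a signal of the bud tip, 4.58-fold and Etv4, a target of the bud's receptor, 3.81-fold lower. Podocyte genes fell in 6 of 17 and rose in 2 (8 and 1 with TPM, 8 and 2 without PND15_Het replicate 2). Wt1, the podocyte regulator, went from 32.3 ± 3.90 to 16.3 ± 1.90 FPKM, while Col4a4, a collagen of the mature filter, rose 1.70-fold. Endothelial genes rose in 6 of 14, Plvap 1.64-fold and Tek 1.45-fold. With TPM 4 rose and 1 fell.

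Cell cycle genes were lower at PND15, and their calls turned on PND15_Het replicate 2. Of 39 tested, 11 fell with all 8 libraries and 29 fell without it, and 0 rose in either. The median was -0.77 log2 with it and -0.42 without it. With TPM over all 8 libraries 16 fell and 0 rose. Against the PND5 mean, the median gene lay at -1.996 log2 in replicate 2 and at -0.45, -0.30 and -0.45 in replicates 1, 3 and 4. The 11 that fell with all libraries were mostly genes of DNA replication. Tyms, thymidylate synthase, was 27.9, 24.1, 27.4 and 25.5 FPKM at PND5 and 17.5, 17.0, 21.6 and 18.7 at PND15, and Mcm5, part of the replicative helicase, was 20.7, 19.8, 19.8 and 22.6 and then 13.1, 7.97, 15.4 and 15.0. The groups overlapped in neither. Top2a, the topoisomerase of dividing cells, was 29.7, 31.0, 27.5 and 30.0 at PND5 and 19.3, 3.59, 24.1 and 21.3 at PND15. It did not overlap either, but replicate 2 widened its spread, and it was called only without that library (-0.44 log2, adjusted p = 0.00341, against -1.02 log2 and adjusted p = 0.152 with it).

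The promoters of Mcm5 and Top2a, as a gene called with all 8 libraries and one called without replicate 2, show motifs linked in general to replication and to mitosis, marked in capitals as above.
Mcm5, chr19:13488563-13488862, plus strand: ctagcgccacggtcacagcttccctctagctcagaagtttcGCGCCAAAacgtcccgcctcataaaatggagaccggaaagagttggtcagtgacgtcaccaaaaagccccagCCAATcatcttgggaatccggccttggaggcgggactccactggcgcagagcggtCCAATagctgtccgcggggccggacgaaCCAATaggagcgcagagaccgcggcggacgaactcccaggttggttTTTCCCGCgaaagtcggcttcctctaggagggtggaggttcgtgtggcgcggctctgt
Top2a, chr10:84473044-84473343, minus strand: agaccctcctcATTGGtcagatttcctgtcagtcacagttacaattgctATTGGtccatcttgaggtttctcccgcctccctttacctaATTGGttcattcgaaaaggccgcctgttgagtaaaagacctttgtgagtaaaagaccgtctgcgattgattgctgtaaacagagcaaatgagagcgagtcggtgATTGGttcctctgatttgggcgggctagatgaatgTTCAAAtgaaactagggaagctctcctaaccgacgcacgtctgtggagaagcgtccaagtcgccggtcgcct
Mcm5 holds both E2F forms, and Top2a the letters TTTGAA in reverse, and both hold CCAAT more than once, with no overlap between motifs. CCAAT stood in 23 of 30 cell cycle promoters (76.7%) and in 37.7% of all promoters. TTTGAA stood in 13 of the 30 (43.3%), against 18.1% of all promoters, and in 1 of the 9 promoters of genes that fell with all libraries. Each E2F form stood in 3 of the 30, all 3 among those 9, against 1.03% and 0.521% of all promoters. The HNF1 core stood in 0 of the 30.

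**Figure D3:**
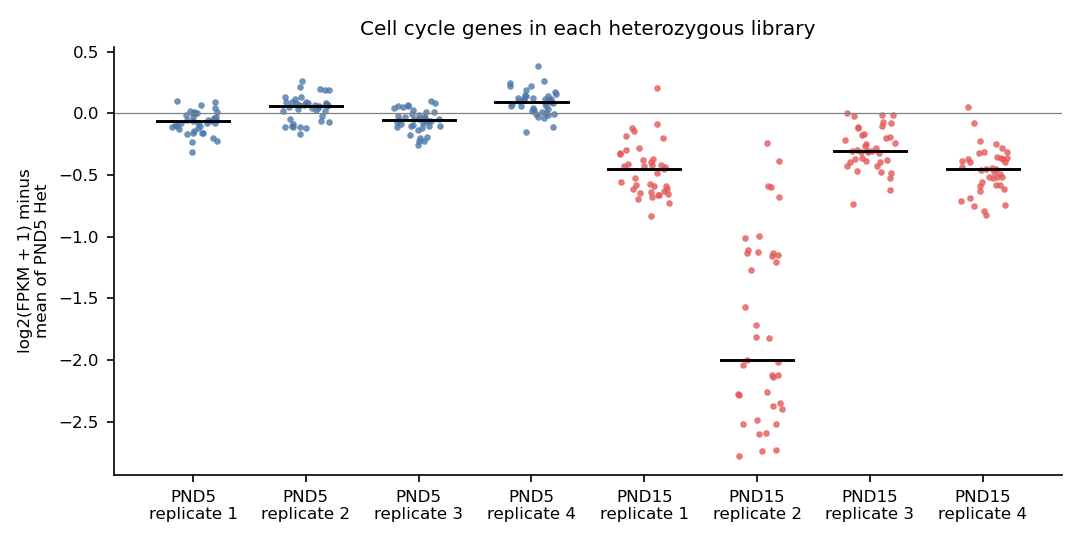
log2(FPKM + 1) of each of 39 cell cycle genes in each heterozygous library minus the gene's mean over the 4 PND5 libraries; points are genes and black bars medians. The median of PND15 replicate 2 is -1.996, against -0.45, -0.30 and -0.45 in the other 3 PND15 libraries.

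Of 25 purine genes tested 6 rose and 3 fell (median 0.17 log2), beside 17% and 14.7% of all genes tested. With TPM 4 rose and 6 fell, beside 1532 and 3677 of all 14392 genes tested. These counts are no result about the list. Nt5e, which turns AMP into adenosine, was 11.02, 9.07, 11.7 and 7.95 FPKM at PND5 and 33.5, 28.2, 29.1 and 27.7 at PND15, 2.98-fold higher. Adk, which returns adenosine to AMP, rose 1.51-fold, Aox1, an oxidase related to Xdh, 2.40-fold, and Pnp and Ampd2 also rose. Impdh2, of guanine nucleotide synthesis, fell 1.46-fold, and Ada, which deaminates adenosine, and Atic fell too. In the renin-angiotensin list 4 of 10 rose and 2 fell, with Agtr1a, the adult angiotensin receptor, 1.76-fold higher beside the fall of Agtr2. Of 15 calcium and phosphate genes 4 rose, among them Kl, klotho, at 1.76-fold and Vdr, the vitamin D receptor, at 1.80-fold, and 3 fell (7 and 2 without PND15_Het replicate 2).

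Of 26 tubular injury genes 5 rose and 5 fell (median 0.00073 log2), beside 17% and 14.7% of all genes tested. These counts are no result about the list, and the genes named from it are single genes. Havcr1, kidney injury molecule 1, was 0.918, 0.822, 0.715 and 0.538 FPKM at PND5 and 1.93, 0.833, 1.36 and 1.37 at PND15. The groups overlapped and it was not called. It lay under 1 FPKM in every PND5 library and passed the filter only through PND15, so no p is read from these values. Spp1, osteopontin, rose 2.06-fold and Fga, a fibrinogen chain, 4.27-fold, while Cdkn1a, a brake on the cell cycle, fell 2.38-fold. Of 20 antigen presentation and interferon genes 6 rose and 0 fell (10 and 0 without replicate 2). Cd74, the invariant chain of class II molecules, was 39.7, 58.8, 56.1 and 46.0 at PND5 and 184, 97.6, 106 and 107 at PND15. Macrophage genes rose in 2 of 20 and fell in 0 (5 and 0 without replicate 2), but with TPM 0 rose and 1 fell. Beside the same shares, the macrophage counts are no result about that list either. Of other cell types, 0 of the 3 lymphocyte, 3 neutrophil, 11 fat, 2 adrenal and 6 urothelium genes tested were called. Without replicate 2, 1 lymphocyte gene rose and 1 urothelium gene fell. Erythroid genes fell in 2 of 6, and in 1 of 6 without replicate 2, over sums of 1068 to 1428 FPKM at PND5 and 417 to 1353 at PND15. Afp fell and Tf rose among 8 liver genes (2 fell and 1 rose without replicate 2), 1 of 2 muscle genes fell, and 3 of 8 inner medulla genes rose (2 rose and 3 fell without replicate 2).

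Set against WT, which shares no library with it, the heterozygous change showed no difference past the test. limma called 0 of 14911 genes (0%) for a difference between the Het and WT changes, the smallest adjusted p was 0.648, and 517 genes (3.47%) had an unadjusted p under 0.05. voom on recovered reads also called 0. The median 95% interval reached 0.306 log2 on either side, and in 13143 genes (88.1%) the interval lay within 1 log2 unit of 0. Differences within these intervals were not detectable here. The intervals are not adjusted for the number of genes, so larger differences may also have gone uncalled. In low genes the 1 FPKM added before the logarithm narrows them. WT alone called 4955 of 14206 genes (34.9%), and 3379 were called in both genotypes, all in the same direction, which is 74.2% of the Het calls and 68.2% of the WT calls. Xdh, Hnmt and Egf changed by 1.69, 3.83 and 3.05 log2 in WT and by 1.61, 4.44 and 2.47 in Het. The differences were -0.08 ± 0.22, 0.61 ± 0.36 and -0.58 ± 0.41 log2 (SE), with a limma adjusted p of 0.987 for Xdh and for Egf. No p is read for Hnmt, which was near 0 in Het at PND5. Cell cycle genes fell in 35 of 39 in WT, beside the 11 or 29 of Het with and without replicate 2.

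**Figure D4:**
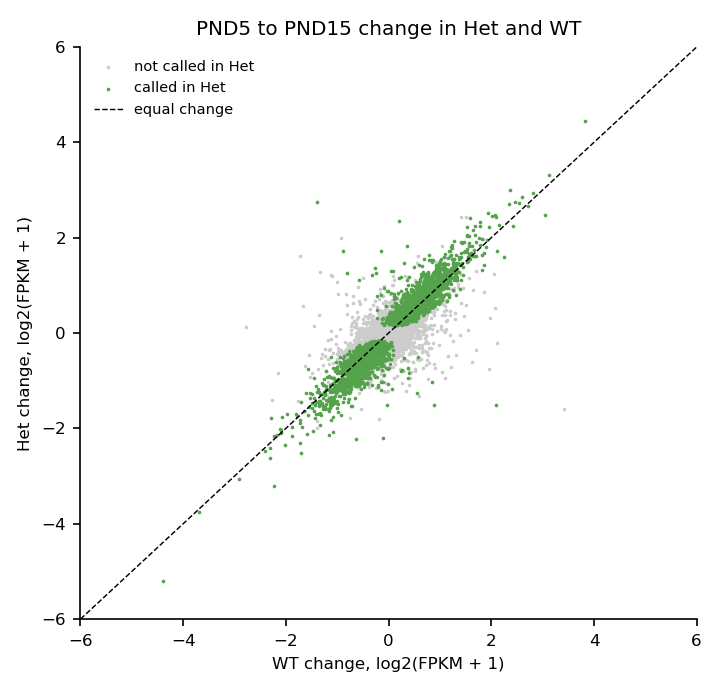
Difference of mean log2(FPKM + 1) between PND15 and PND5 in Het (vertical) against WT (horizontal) for 14017 genes tested in both; green points were called in Het and the dashed line marks equal change. The slope of Het on WT was 0.922 and Pearson r 0.839 across genes, which are not independent.

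Set against Homo, the heterozygous change differed in 1705 of 15097 genes (11.3%). The Het change was more positive in 830 (5.5%) and more negative in 875 (5.8%), and with TPM in 447 and 1450. The same Het libraries stand in this contrast and in the Het change itself. Havcr1 went from 0.748 ± 0.163 to 1.37 ± 0.447 FPKM in Het (n = 4 and 4) and from 0.622 ± 0.244 to 52.6 ± 29.4 in Homo (n = 4 and 4), a difference of the changes of -4.49 ± 0.37 log2 (SE, limma adjusted p = 6.61e-05). Mmp7, a matrix protease, stood at 0.0676 FPKM in PND15_Het replicate 3 and at 0 in the other 3, and at 17.9 ± 8.33 in PND15_Homo. Alox15b, a lipoxygenase, fell 2.56-fold in Het and went from 6.29 ± 0.688 to 19.8 ± 6.93 in Homo. Il24 and Il1rn, a cytokine and the antagonist of the interleukin 1 receptor, differed in the same direction (-3.03 and -2.20 log2).

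By list, the change was more negative in Het than in Homo in 21 of 28 injury genes and 20 of 23 macrophage genes, and more positive in none of either. It was more positive in 16 of 29 proximal tubule solute carriers, 19 of 25 genes of amino acid metabolism and 14 of 25 of fatty acid oxidation, and more negative in none of these. Cell cycle genes differed in 0 of 39, but this contrast holds PND15_Het replicate 2, the lowest PND15_Het library in 38 of them. The 0 therefore does not show that the changes were equal. Among single genes Scnn1g went from 17.5 ± 1.07 to 22.3 ± 2.74 FPKM in Het and from 20.4 ± 0.762 to 12.6 ± 2.09 in Homo, and Tmem207, a gene of the thick ascending limb list, from 5.93 ± 0.258 to 15.7 ± 5.40 in Het and from 7.19 ± 0.445 to 4.96 ± 1.62 in Homo. Ptges, a prostaglandin E synthase, Atp6v0d2, a proton pump subunit, and Tmlhe, of carnitine synthesis, also had a more positive Het change. Egf did so too (1.39 ± 0.39 log2, SE, limma adjusted p = 0.0357), whereas for Xdh the difference was -0.32 ± 0.33 log2 (adjusted p = 0.59). For Hnmt the difference was 1.98 ± 0.48 log2 (SE), given as a description without a p. The count was 846 without PND15_Homo replicate 3, 881 without PND15_Homo replicate 1, 916 and 912 without PND5_Homo replicates 2 and 4, 1119 without PND15_Het replicate 1, and 990 and 1099 without PND5_Het replicates 2 and 4.

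**Figure D5:**
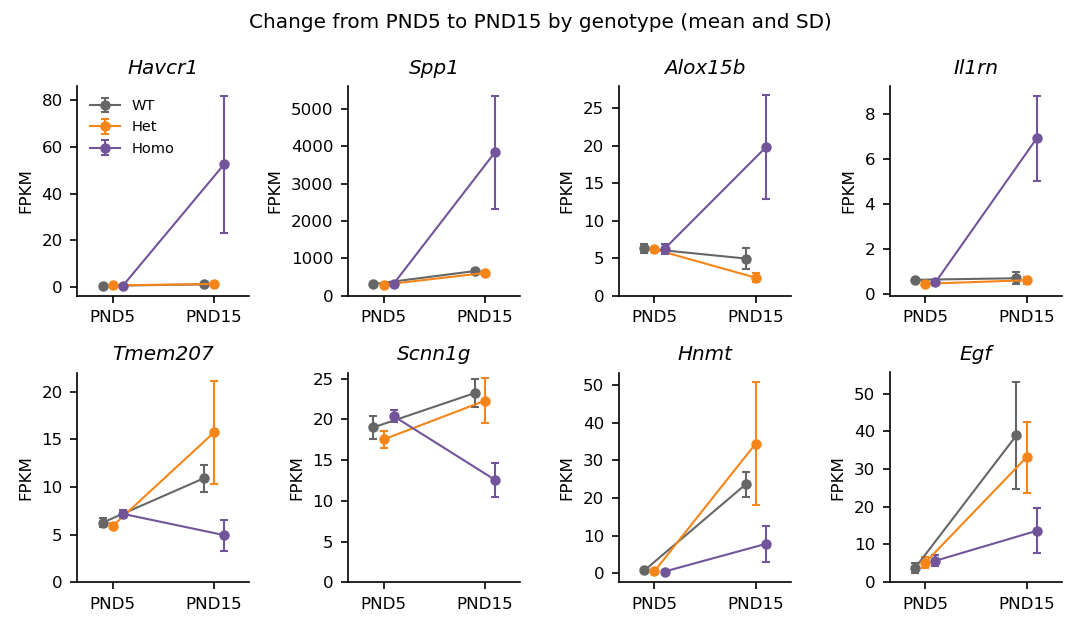
Mean and SD of FPKM at PND5 and PND15 in WT (grey, n = 3 and 4), Het (orange, n = 4 and 4) and Homo (purple, n = 4 and 4) for 8 genes. Their change differed between Het and Homo, with Hnmt shown as a description only. Points of 1 age are set side by side. Havcr1 reaches 52.6 FPKM at PND15 in Homo and 1.37 in Het, whereas Egf reaches 33.1 in Het and 13.5 in Homo.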

How the data were processed

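Cortex RNA selected for poly-A tails was sequenced in 44 male rats. What the authors deposited is a single FPKM table, 1 column a library. The submitters' processing notes list HISAT2 2.0.5, StringTie 1.3.3b, featureCounts 1.5.0-p3 and fastp and do not say what each did; build and strandedness are not stated, so overlapping or antisense genes and close copies cannot be parted. Whole reads could be recovered: 100% of values, times gene length and a library size, came within 0.01 read of a whole number. The sizes were 0.930 to 0.975 times the counted reads in PND15_Het and 1.04 to 1.08 times in PND5_Het, which points to a scaling between libraries before deposit. This factor differed between the ages without overlap, and its part in the split by direction was not tested.

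Groups follow the age and genotype labels, and replicate numbers only the order of the records. The test was limma 3.58.1 under R 4.3.3 with statmod 1.5.0, trended and robust, on FPKM plus 1 in log2, for genes at 1 FPKM or more in at least 3 of the libraries compared. Benjamini-Hochberg adjusted p under 0.05 made a call. Interaction contrasts over 15 libraries (with WT) and 16 (with Homo) compared the changes. voom on recovered reads called 4682 genes in the Het comparison. The scripts were tested on simulated data.

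The 40 lists, from general knowledge, held 771 entries, 745 found by symbol and 648 tested; where a symbol had several entries the highest was used. Members and lists were chosen with earlier results of these data known. Named by rule were Xdh, Hnmt and Egf, the 10 largest called changes each way that did not overlap and whose higher mean reached 5 FPKM, up to 5 called members a list by smallest p, and 5 genes each way per genotype difference. Other list members were named after their values were seen. A few genes that these choices would name are not reported here. Promoters are RefSeq's (GRCr8). The settings varied were the pseudocount (0.1), the filter (none, or a mean of 5 FPKM), TPM, median ratios, array weights, the libraries in the fit, a term for title numbers from 100 up, and leaving out each library; TPM and leaving out PND15_Het replicate 2 for list counts were added after seeing the data.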

Additional observations from a re-analysis of the deposited data

Results flagged for a closer look

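In groups of 4 libraries, 18 of 358 groups of named genes held a library far from the other 3, and chance flags about 1 in 20 groups. Of these, 8 were PND15_Het replicate 2. It was the highest for Sdha (316 FPKM), Sdhb (325.6), Ndufs3 (149.1), Scnn1a (41.9), Hnf4a (163) and Hspa1b (7.90), and the lowest for Slc22a25 (55.7) and Impdh2 (45.8). In other PND15_Het libraries Slc7a9 was low in replicate 1 (108.9 FPKM), Kcnj1 low in replicate 4 (113), Ntn1 high in replicate 4 (33.1), Cd74 high in replicate 1 (184) and Mmp7 above 0 only in replicate 3 (0.0676). At PND5, Rab11fip3 was low in replicate 2 (45.7 FPKM), Slc4a9 and Atp2b4 high in replicate 1 (17.9 and 26.2), Akr7a3 high in replicate 3 (88.6) and Tnnt3 high in replicate 4 (2.84).

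The change from PND5 to PND15 differed between Het and Homo by the test of the difference itself (limma, interaction contrast). The log2 difference was 0.69 for Ptges, 0.99 for Scnn1g, 0.997 for Atp6v0d2, 1.72 for Tmem207 and 0.97 for Tmlhe, all more positive in Het. It was -4.49 for Havcr1, -4.19 for Mmp7, -2.55 for Alox15b, -3.03 for Il24 and -2.20 for Il1rn. The limma adjusted p ranged from 6.61e-05 for Havcr1 to 0.00348 for Tmlhe. Mmp7 lay under 1 FPKM in every PND15_Het library and was high in PND15_Homo, so no p is read for it.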

How the results depend on the processing

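No paired analysis was possible because the labels give the groups no shared replicate numbers. In the alternatives run, the count of genes changed in Het ranged from 3231 without PND5_Het replicate 4 to 4659 without PND15_Het replicate 2 among fits that left out 1 library, and from 3780 (mean of at least 5 FPKM) to 5901 (all 23 libraries of both ages) among the others. For the Het and WT difference 0 genes were called in each, with 321 to 840 at an unadjusted p under 0.05. The count for Het against Homo went from 846 to 2517 with 1 library left out and from 1262 (no filter) to 2338 (23 libraries) otherwise. The Xdh difference was 1.47 to 1.70 log2 with 1 library left out, where 3 against 4 libraries cannot give an exact permutation p under 0.0571. No value of a named gene changed sign. TPM ended 9 of 186 calls, among them those of Lamb2, Eng, Nr3c2, Scnn1a, Scnn1g, Cd14, Lyz2 and Hspa1b. Leaving out PND15_Het replicate 2 ended those of Hbb-b1 and Slc14a2. Havcr1 gained a call, but it passed the filter only through PND15, so no p is read for it. The causes were not tested. Calls of low genes are limited by depth and by the pseudocount.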

Other observations

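Some genes varied widely between libraries of the same age. Hprt1, the purine salvage enzyme, was 0.631, 23.4, 19.2 and 0.658 FPKM at PND5 and 26.3, 0.323, 1.14 and 0.785 at PND15, in the highest of several entries under that symbol. Calb1, a calcium-binding protein of the distal tubule, was 186, 60.4, 279 and 159 at PND5 and 271, 352, 80.3 and 123.7 at PND15. Slc14a2, a urea carrier of the inner medulla whose symbol also has several entries, was 0.378, 5.34, 3.24 and 5.33 at PND5 and 25.5, 37.0, 8.93 and 13.6 at PND15. Upk1a, a urothelium gene, was 15.4 FPKM in PND15_Het replicate 2 and 1.94 to 3.31 in the other 3 PND15 libraries, and Dnase1 111 against 15.3 to 24.6. These genes were picked after their values were seen, and no explanation was tested.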
